A study of Mus musculus with 12 samples.

Results

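The genes described here are the Zfp-named zinc finger genes of the mouse that were measurably expressed in R1 mouse embryonic stem cells (mESCs) or in their retinoic acid (RA)-treated derivatives. They are the protein-coding genes whose symbol is Zfp followed by a number and whose mean over 12 RNA-seq libraries was at least 3 FPKM. FPKM are sequenced fragments scaled by gene length and by a library size, which here was not the total of assigned fragments. Of 54555 genes in the table, 367 protein-coding genes bear such a symbol. After Zfp42, Zfp281, Zfp36 and Zfp352 were left out by name, 126 reached that level and 237 did not. The genes were thus chosen by their mean FPKM, so their levels are a description. Differences between groups were not a criterion, but a gene could pass through the groups where it was high. Of the 126, 34 had a mean under 3 FPKM in at least 1 group. The 3 genes just inside the limit were Zfp236 at 3.001, Zfp362 at 3.02 and Zfp184 at 3.02 FPKM, and the 3 just outside were Zfp326 at 2.99, Zfp931 at 2.91 and Zfp3 at 2.90 FPKM.

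C2H2 zinc finger proteins read DNA through tandem fingers, each held in shape by a zinc ion, and they form the largest family of DNA-binding proteins in mammals. Many carry a KRAB domain, which recruits TRIM28 (KAP1) and, through it, the histone methyltransferase SETDB1, HP1 proteins and DNA methylation. In early embryos and stem cells this machinery silences retroelements and protects the methylation of imprinted regions. Other members act as activators, as partners of chromatin complexes or in RNA handling.

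The study compared 4 groups of 3 libraries, all from the R1 line grown on gelatin. The mESC control group was cultured with leukemia inhibitory factor (LIF), and the mESC inhibitor group received 25 μM Ac45SGlcNAc, a metabolic inhibitor of O-GlcNAc transferase (OGT), for 48 h. The RA control group was pre-treated with DMSO and the RA inhibitor group with the same inhibitor, before both were kept for 48 h in LIF-free medium with 1 μM RA. The labels do not say whether the mESC controls received DMSO or whether the inhibitor stayed in the medium with RA. Comparisons of RA-treated cells with mESCs therefore also span the loss of LIF and 48 h of further culture, which cannot be told apart from RA. The labels do not say whether replicates were separate cultures, so p-values measure the spread between libraries, which may be technical.

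Libraries held 15553627 to 17833464 fragments assigned to genes. The 6 pluripotency markers checked (Pou5f1, Sox2, Nanog, Zfp42, Esrrb and Tdgf1) summed to 2447 to 2491 FPKM in mESC control, 2279.9 to 2364 in mESC inhibitor, 293 to 329 in RA control and 236 to 253 in RA inhibitor libraries. The 6 RA response markers summed to 46.6 to 51.9, 50.5 to 57.5, 815 to 867 and 1068 to 1119.7 FPKM in the same order. Of 6 fibroblast or feeder markers, Col3a1, Dcn and Postn had means under 0.1 FPKM in every group. Col1a1 was at 0.825 to 1.24 FPKM in mESC control and 3.95 to 5.05 FPKM in RA control libraries. Col1a2 had means of 0.0665 and 0.744 FPKM in these groups, and Thy1 of 9.96 and 7.61 FPKM. The 6 neural markers summed to 39.9 to 43.4 FPKM in mESC controls and 23.5 to 25.6 FPKM in RA controls. This sum follows Tubb3, at means of 39.1 and 17.9 FPKM, while Sox1 (0.533 and 1.24 FPKM), Nes (1.43 and 3.13 FPKM), Map2 (0.427 and 1.48 FPKM), Pax6 (0.158 and 0.448 FPKM) and Neurog1 (0.0499 and 0.132 FPKM) had higher means in RA controls. The 6 extraembryonic endoderm markers summed to 5.91 to 6.35 FPKM in mESC controls and 16.6 to 18.9 FPKM in RA controls. The part of such cells in the results on the 126 genes was not tested. In such bulk libraries, fewer cells of a type and less RNA per cell cannot be told apart.

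The deposited transcription factor annotation placed 41 of the 126 genes in the KRAB family, 26 in zf-C2H2, 6 in SCAN and 1 in BTB, and gave no family for 52. In the translated GENCODE M21 coding sequences, 121 had at least 1 C2H2 finger (C, 2 to 4 residues, C, 12 residues, H, 3 to 5 residues, H), with a median of 9 and a maximum of 36 in Zfp142. The 5 in which this pattern was not found were Zfp185, Zfp330, Zfp365, Zfp703 and Zfp839. A KRAB A box pattern was found in 34 of the 41 genes of the KRAB family and in 5 others: Zfp1, Zfp229, Zfp688, Zfp866 and Zfp961. The genes lay on 20 chromosomes, with 30 on chromosome 7 and 12 on chromosome 17.

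RefSeq promoter sequences (GRCm38.p6, from 250 bases before to 50 after a transcript start) matched 100 of the 126 genes. Some matched starts were far from the deposited gene start, by 36394 bases in Zfp652, 16267 in Zfp866 and 12893 in Zfp981. Such windows were kept in the counts, and that of Zfp866 holds a YY1 core. Zfp promoters had a median of 17.5 CpG dinucleotides, against 13 in 17491 protein-coding promoters, and a median GC content of 58.3% against 56.3%. The core motif of ZFP143, itself a member of the set, was searched as ACTACA, any base and TTCC on both strands and occurred in 7 of 100 Zfp promoters, against 1.48% of all. The 7 windows are shown because this motif had the largest ratio to all promoters of the 4 searched. The match is in capitals, and in Zfp146, Zfp1 and Zfp180 it lies on the opposite strand. A match is a description of the letters and not a binding site.
Zfp692, chr11:58307013-58307039, plus strand: taaggctaACTACAATTCCcggcaggc
Zfp146, chr7:30169852-30169878, minus strand: gccttgtgGGAAGTGTAGTccaaagtc
Zfp1, chr8:111643410-111643436, plus strand: gcattatgGGAATTGTAGTcctacacc
Zfp317, chr9:19621859-19621885, plus strand: aactagaaACTACATTTCCcataaacc
Zfp383, chr7:29908468-29908494, plus strand: aatcgcggACTACATTTCCcagaagcg
Zfp180, chr7:24081867-24081893, plus strand: gagttctgGGAATTGTAGTtccattga
Zfp566, chr7:30090568-30090594, minus strand: tcggactgACTACATTTCCcagagggc
The YY1 core, AANATGGC on both strands, was in 18 of 100 Zfp promoters against 6.65% of all. The NRF1 core (GCGCA, any base and GCGC) was in 8 of 100 against 6.66%, and the RA receptor half-site AGGTCA, added after the values had been seen, in 12 of 100 against 14.5%. Both Zfp383 and Zfp566, which lie in the same chromosome 7 cluster, carried the ZFP143 and YY1 cores. Matches to different motifs were counted separately, also where they overlapped.

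The promoters of 3 genes with distinct patterns across the 4 groups are printed from RefSeq (GRCm38.p6), 5′ to 3′ on the gene strand, with matches to the YY1 core in capitals. Zfp809 rose with RA, Zfp428 fell the most with RA, and Zfp830 had the smallest adjusted p for the difference between the inhibitor effects. Zfp809 had 11 CpG dinucleotides and 1 YY1 core on the opposite strand (GCCATCTT), Zfp428 had 19 and none of the 4 motifs, and Zfp830 had 24 and 1 YY1 core.
Zfp809, chr9:22225453-22225752, plus strand: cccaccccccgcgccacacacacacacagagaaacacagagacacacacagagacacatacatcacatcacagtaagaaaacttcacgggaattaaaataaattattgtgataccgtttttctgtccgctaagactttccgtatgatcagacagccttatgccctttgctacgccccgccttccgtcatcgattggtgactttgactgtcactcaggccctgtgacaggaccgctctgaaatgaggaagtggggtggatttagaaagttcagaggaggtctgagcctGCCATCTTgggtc
Zfp428, chr7:24506837-24507136, plus strand: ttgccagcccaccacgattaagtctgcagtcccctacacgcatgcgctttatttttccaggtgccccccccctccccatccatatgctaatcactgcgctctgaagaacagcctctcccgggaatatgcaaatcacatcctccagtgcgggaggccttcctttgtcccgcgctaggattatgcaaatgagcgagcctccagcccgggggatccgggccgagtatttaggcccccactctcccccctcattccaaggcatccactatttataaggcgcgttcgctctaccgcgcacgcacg
Zfp830, chr11:82764095-82764394, plus strand: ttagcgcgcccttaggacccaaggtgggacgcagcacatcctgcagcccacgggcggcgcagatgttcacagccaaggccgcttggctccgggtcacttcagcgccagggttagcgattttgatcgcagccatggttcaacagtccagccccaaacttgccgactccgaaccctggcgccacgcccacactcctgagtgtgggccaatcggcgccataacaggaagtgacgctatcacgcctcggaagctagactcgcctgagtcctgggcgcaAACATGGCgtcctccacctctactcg

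Mean levels over all libraries ran from 3.001 FPKM to 60.1 FPKM in Zfp428, with a median of 5.73, and 38 genes were at 10 FPKM or more. The gene with the second highest mean was Zfp598, a ubiquitin ligase that senses collided ribosomes, at 47.4 FPKM. It was followed in the role lists by Zfp706 at 42.7 FPKM, Zfp106 at 39.7 FPKM, Zfp57 at 38.9 FPKM and Zfp568 at 35.5 FPKM. In each group separately, 112 genes reached 3 FPKM in mESC control, 117 in mESC inhibitor, 109 in RA control and 108 in RA inhibitor cells, and 92 did so in all 4. The summed level of the 126 genes was 1299.5 to 1319.9 FPKM in mESC control libraries, 1343 to 1351 in mESC inhibitor, 1022 to 1053 in RA control and 1092 to 1102 in RA inhibitor libraries. Every RA library was below every mESC library. As a share of all FPKM the 4 groups were at 0.328 to 0.341%, 0.332 to 0.356%, 0.291 to 0.325% and 0.327 to 0.348%. On this scale the RA control libraries lay below every other library, and the other 3 groups overlapped.

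With RA and no inhibitor, 25 of the 126 genes rose and 53 fell (limma on log2(FPKM + 1), Benjamini-Hochberg adjusted p under 0.05 over 14866 tested genes). Among all tested genes 33.7% rose and 37.2% fell (70.9% together), so the Zfp genes were called higher in a smaller share (19.8%) and lower in a somewhat larger one (42.1%). The median log2 fold change was -0.12 for the Zfp genes and -0.03 for all tested genes. The split depended on the scaling of the libraries. When values were rescaled to TPM (all FPKM of a library set to the same sum), 47 rose and 35 fell, against 44.2% and 25.3% of all genes. With fragments per library total, 46 rose and 36 fell, against 44.5% and 26%. These scalings moved the all-gene median from -0.03 to 0.18 and 0.15. Assigned fragments were 1.06 to 1.11 times the library size implied by the deposited FPKM in mESC libraries. In RA libraries they were 0.883 to 0.934 times that size. Deposited FPKM thus differ from fragments per library total by a factor that goes with the RA groups. Under all 3 scalings 25 genes were called higher and 35 lower, against 33.7% and 25.2% of all genes. On the scale of log2(FPKM + 1) in deposited FPKM, a change of at least 2-fold was seen in 2 genes that rose and 8 that fell. Among all genes these shares were 7.63% and 6.36%. Such counts also depend on the scale. Over the alternatives tried, Zfp13 ran from -1.18 to -0.846 and Zfp553 from -1.25 to -0.897 on the log2 scale. Among genes that rose, Zfp319 ran from 0.698 to 1.11 and Zfp768 from 0.636 to 1.09.

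**Figure D1:**
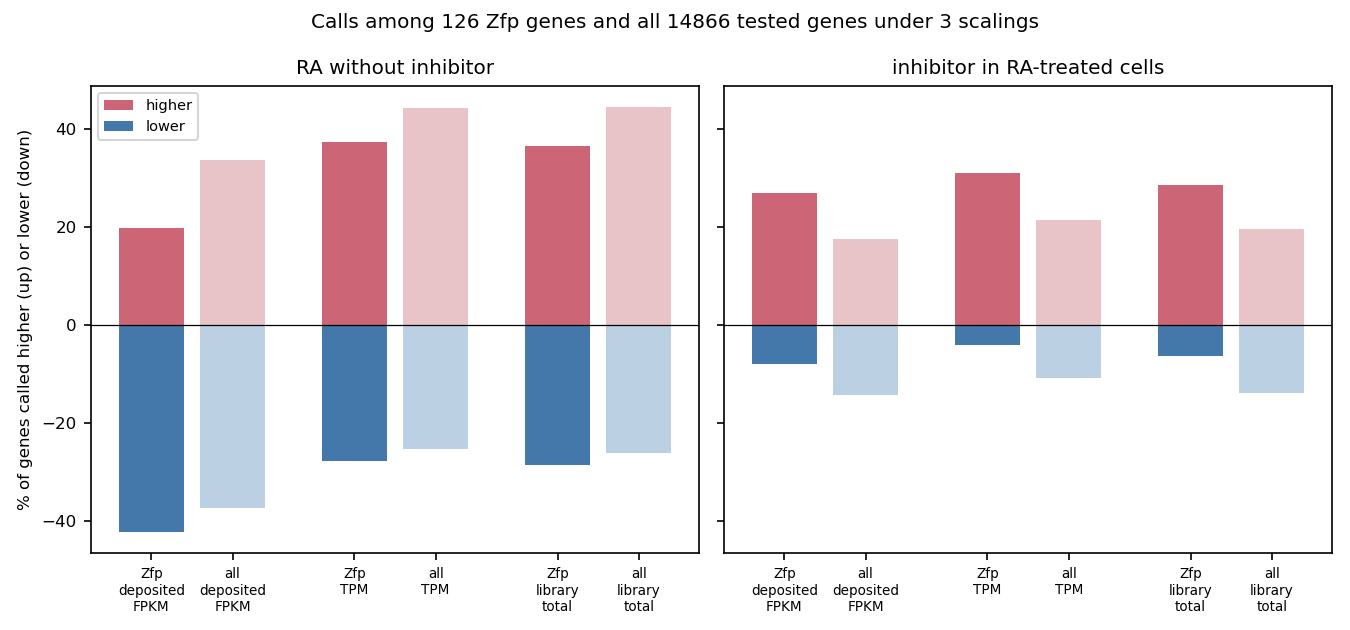
Share of genes called higher (bars above 0) or lower (bars below 0) in RA control against mESC control cells and in RA inhibitor against RA control cells, as a percentage of the 126 Zfp genes (dark) or of all 14866 tested genes (pale), under 3 library scalings. With RA the Zfp genes go from 25 higher and 53 lower in deposited FPKM to 47 and 35 in TPM. All tested genes go from 33.7% and 37.2% to 44.2% and 25.3%. With the inhibitor in RA-treated cells more Zfp genes are higher than lower under each scaling. The same holds for all tested genes, at 17.6% and 14.3% in deposited FPKM, 21.5% and 10.7% in TPM, and 19.7% and 13.8% per library total.

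The largest fall was that of Zfp428, a short protein with 1 finger. It stood at 110.1, 96.0 and 98.7 FPKM in mESC control and 14.9, 13.4 and 15.5 FPKM in RA control libraries, a log2 change of -2.72 (SE 0.08, adjusted p = 2.41e-10, limma). The groups were far apart, and all 3 RA inhibitor libraries, at 22.2, 19.1 and 21.9 FPKM, lay between them. Zfp710 followed at 36.3, 37.2 and 38.5 FPKM against 11.1, 9.88 and 10.3 FPKM, a log2 change of -1.75 (SE 0.05, adjusted p = 1.46e-10). Zfp532 (-1.69 on the log2 scale) and the KRAB gene Zfp59 (-1.64) also fell by more than 2-fold. They share 25.6% and 52.4% of their 50-base words with other genes, so fragments may be divided among copies. Zfp553 (-1.10) and Zfp13 (-1.05) fell by just over 2-fold in deposited FPKM, the latter named after its value was seen.

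The largest rise was that of Zfp703, a corepressor that binds Groucho proteins and has no canonical finger in this search. Its levels were 0.394, 0.549 and 0.315 FPKM in mESC control and 18.4, 16.1 and 16.1 FPKM in RA control libraries, a log2 change of 3.65 (SE 0.09, adjusted p = 4.72e-11). It was the only gene of the 126 with a group mean under 1 FPKM. With means of 0.419 and 0.390 FPKM in the mESC groups, Zfp703 met the level limit only through the RA groups. Its place in the set, and so its rank as the largest rise, is a description. Zfp185, an actin-binding LIM protein despite its name, rose by 0.84 from 7.91, 7.22 and 8.25 FPKM to 13.8, 14.7 and 15.7 FPKM. Zfp319 (0.75), Zfp787 (0.74) and Zfp768 (0.72) rose by smaller log2 amounts and without overlap between the groups. Each of these changes kept its call under every alternative tried.

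**Figure D2:**
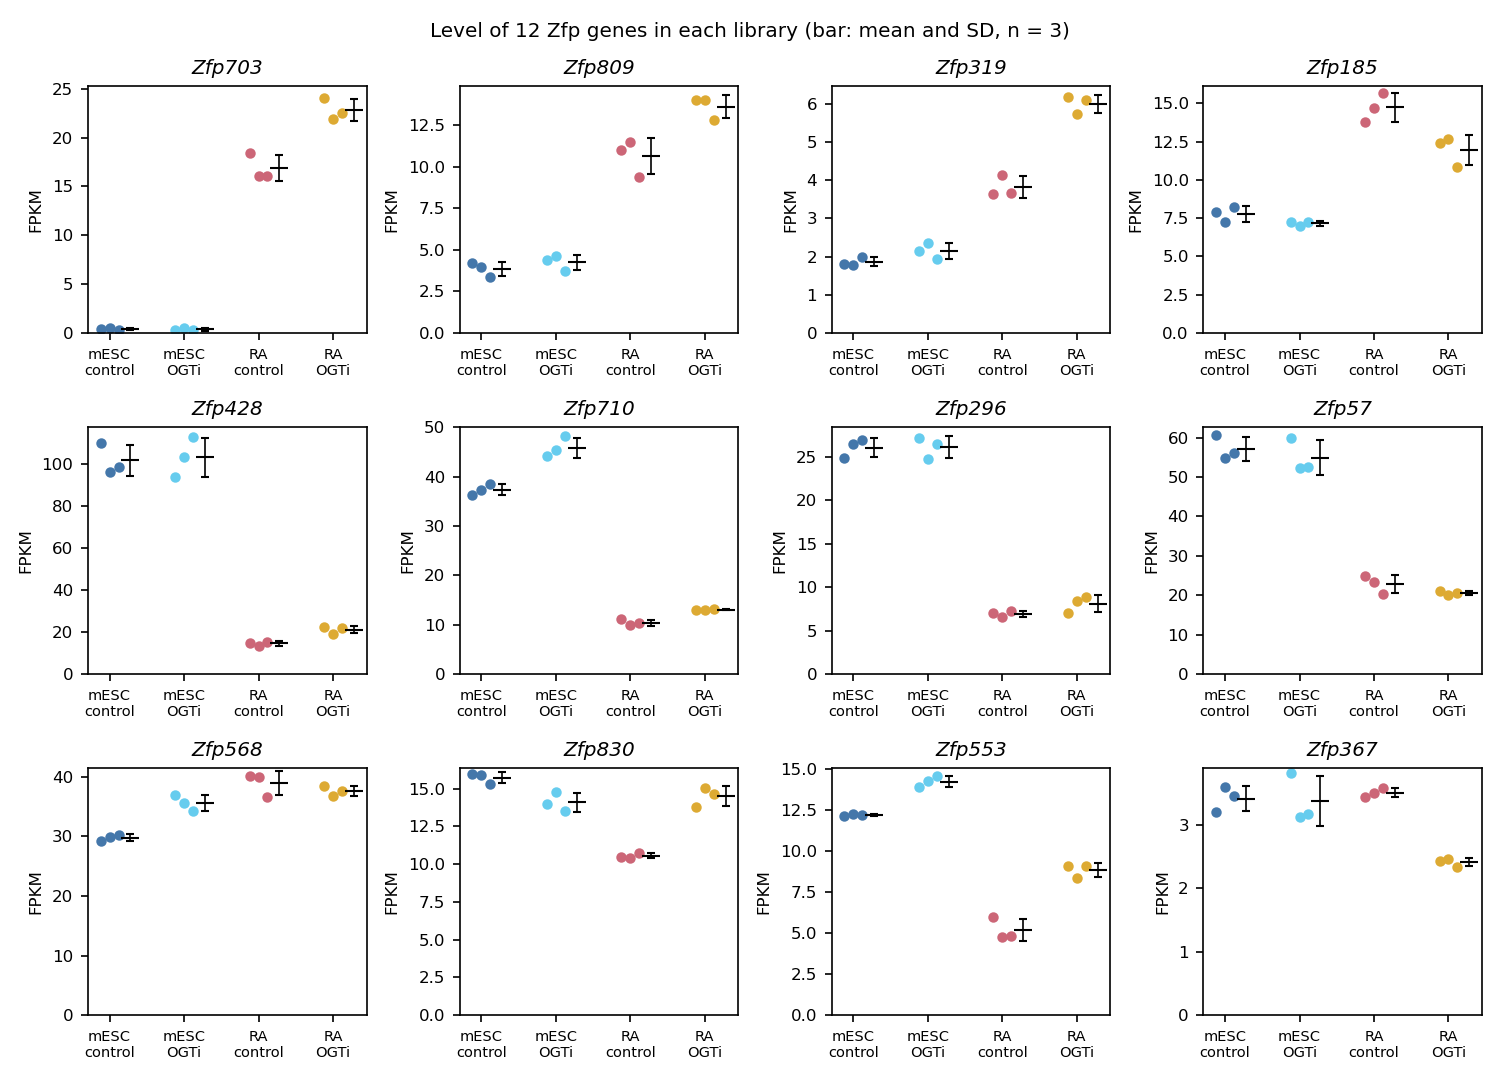
FPKM of 12 Zfp genes in each of the 12 libraries, with points for libraries and a black bar for the group mean and SD (n = 3). The y axes start at 0 and differ between genes. Zfp703 and Zfp809 are high in both RA groups, Zfp428, Zfp710, Zfp296 and Zfp57 are high in both mESC groups, and Zfp830 is low in the RA control libraries (10.4 to 10.7 FPKM).

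The counts by role that follow stand against 33.7% of all tested genes higher and 37.2% lower with RA, or 33.7% and 25.2% under all 3 scalings, and the lists are small. Among 5 imprint and retroelement repressors of the set, 2 rose and 2 fell with RA. Zfp57, which keeps DNA methylation at imprinted control regions, stood at 60.7, 54.8 and 56.0 FPKM in mESC control and 24.9, 23.3 and 20.4 FPKM in RA control libraries. Its groups did not overlap, with a log2 change of -1.29 (SE 0.08, adjusted p = 3.21e-08). Zfp809, which silences murine leukemia virus-type elements through their primer binding site, moved the other way, from 4.23, 3.95 and 3.36 FPKM to 11.0, 11.5 and 9.39 FPKM. Its log2 change was 1.26 (SE 0.09, adjusted p = 1.98e-07). Zfp568, a KRAB gene that represses a placental Igf2 transcript, rose by 0.37 (adjusted p = 1.92e-05) and Zfp961 fell by 0.57 on the log2 scale (adjusted p = 0.000289). Zfp445, which acts beside ZFP57 at imprints, had levels of 6.75, 6.40 and 6.76 FPKM in mESC control and 6.59, 7.11 and 5.94 FPKM in RA control libraries (-0.02, SE 0.08, adjusted p = 0.827). Of the other 3 genes on this list, Zfp819 was below the level limit at 3.38 to 3.56 FPKM in mESC control and 0.130 to 0.312 FPKM in RA control libraries, Zfp932 was also below it, and Zfp708 was listed at 0.

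The 18 KRAB silencing cofactors, none of them Zfp genes, gave 2 higher and 14 lower with RA, of which 2 and 10 were called under all 3 scalings. These are 11.1% higher and 77.8% lower, against 33.7% and 37.2% of all tested genes. Trim28, the corepressor that KRAB domains recruit, went from 661 to 715 FPKM across mESC control libraries to 194 to 222 FPKM in RA control libraries, a log2 change of -1.68. Uhrf1 (-1.16), Smarcad1 (-1.12) and Setdb1 (-0.73) also fell. The 41 genes annotated as KRAB gave 12 higher and 15 lower (29.3% and 36.6%) with a median of -0.03, near the values for all tested genes, and the other 85 gave 13 higher and 38 lower with a median of -0.14. The difference between these classes was not tested, and their counts are in deposited FPKM. Of the 85 genes, the 52 with no annotated family went from 7 higher and 25 lower to 20 and 17 in TPM. Per library total they gave 19 and 17. All tested genes stood at 44.2% and 25.3% in TPM and 44.5% and 26% per library total. The median of the 52 went from -0.13 to 0.09 and 0.07, against -0.03, 0.18 and 0.15 for all tested genes.

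Of 6 stem cell regulators, 5 fell with RA and none rose, and 3 were lower under all 3 scalings, against 37.2% and 25.2% of all tested genes lower. Zfp296, a stem cell factor that binds the NuRD complex, fell from 24.9, 26.5 and 26.9 FPKM to 7.01, 6.60 and 7.21 FPKM (log2 change -1.77, SE 0.07, adjusted p = 1.98e-09). Its exons overlap Gemin7 on the opposite strand over 263 bases, and without a known strand setting fragments there cannot be assigned. Zfp462, a large chromatin protein that restrains endoderm genes, fell by 0.76 and Zfp207, a spindle and splicing factor, by 0.58 on the log2 scale. Zfp143 fell by 0.38 in deposited FPKM, with adjusted p = 0.0759 in TPM, and the change of Zfp217 (-0.19) turned to 0.04 in TPM and 0.03 per library total. Zfp706, a small protein that lowers Klf4, was at 47.0, 43.9 and 44.6 FPKM before and 44.2, 41.8 and 43.5 FPKM after RA (-0.06, adjusted p = 0.256).

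The 4 developmental regulators of the set gave 1 higher and 3 lower with RA, in a comparison where 70.9% of all tested genes were called. Beside the rise of Zfp703, Zfp219, a cofactor of SOX9, fell from 36.4, 36.4 and 37.3 FPKM to 18.4, 17.7 and 18.3 FPKM (log2 change -0.98, SE 0.04, adjusted p = 1.12e-09). Zfp423, a many-fingered partner of SMAD proteins, fell by 0.91 and Zfp64 by 0.71 on the log2 scale. Zfp503, on this list but below the level limit, was at 0.0473 to 0.211 FPKM in mESC control and 3.17 to 4.47 FPKM in RA control libraries. All of these held under the 3 scalings. Of the other genes on this list below the limit, Zfp521 rose (0.51) and Zfp704 fell (-0.34) with RA in deposited FPKM. Zfp260 was not called (0.02, adjusted p = 0.878) and Zfp536 was not tested.

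The 8 chromatin partners gave 0 higher and 3 lower with RA. Only Zfp384, a DNA-binding factor of end joining, was lower under all 3 scalings, falling by 0.75 from 6.999, 7.19 and 7.81 FPKM to 3.80, 4.39 and 3.72 FPKM. Zfp451, a SUMO ligase, fell by 0.28 on the log2 scale and lost the call in TPM and per library total. Zfp609 (-0.18) turned to 0.05 in TPM and 0.04 per library total. It also lost the call without mESC control library 1 or 3 or RA control library 2 or 3 (adjusted p = 0.06, 0.0909, 0.0506 and 0.0898). Zfp592, Zfp687, Zfp335, Zfp652 and Zfp131 did not pass the test.

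In the RNA and ribosome group of 7, Zfp346, which binds double-stranded RNA, rose by 0.41 and 4 genes fell. Zfp830, a splicing-associated protein needed by the inner cell mass, fell from 16.0, 15.9 and 15.3 FPKM to 10.5, 10.4 and 10.7 FPKM (log2 change -0.53, SE 0.05, adjusted p = 1.01e-06). Zfp622, a factor of large ribosomal subunit maturation, and Zfp330, a nucleolar protein, each fell by 0.35 on the log2 scale. Zfp598 changed by -0.17 in deposited FPKM and by 0.07 and 0.06 in TPM and per library total. In this group only Zfp622 and Zfp830 were lower under all 3 scalings.

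In cells that had received the inhibitor, RA gave 25 genes higher and 55 lower, against 32% and 36.7% of all tested genes (68.7% together). In TPM the split was 51 and 26, against 45.1% and 23%, and per library total 51 and 28, against 44.9% and 24%. Under all 3 scalings 25 were higher and 26 lower, against 32% and 22.9%. Both RA comparisons use separate libraries and can be set against each other. Of the 25 genes higher in each, 21 were shared (84% of each list). Among all tested genes the shared ones made up 82.2% and 86.5% of the 2 lists of genes called higher. As a share of all genes, 16.7% of the 126 and 27.7% of all tested genes were higher in both. Of the 53 and 55 lower, 49 were shared (92.5% and 89.1%), against 84.8% and 86% of the lists of all tested genes. Lower in both were 38.9% of the 126 and 31.5% of all tested genes. None of the 126 was called in opposite directions, against 81 of the 14866 tested genes. Such calls were too rare for this count to set the 126 apart from all tested genes. Zfp703 (4.10), Zfp809 (1.48), Zfp768 (1.19) and Zfp319 (1.16) rose the most with inhibitor, and Zfp428 (-2.24), Zfp710 (-1.74), Zfp296 (-1.58) and Zfp57 (-1.37) fell the most. In deposited FPKM, at least 2-fold changes were seen in 4 that rose and 6 that fell, against 7.76% and 5.83% of all genes.

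**Figure D3:**
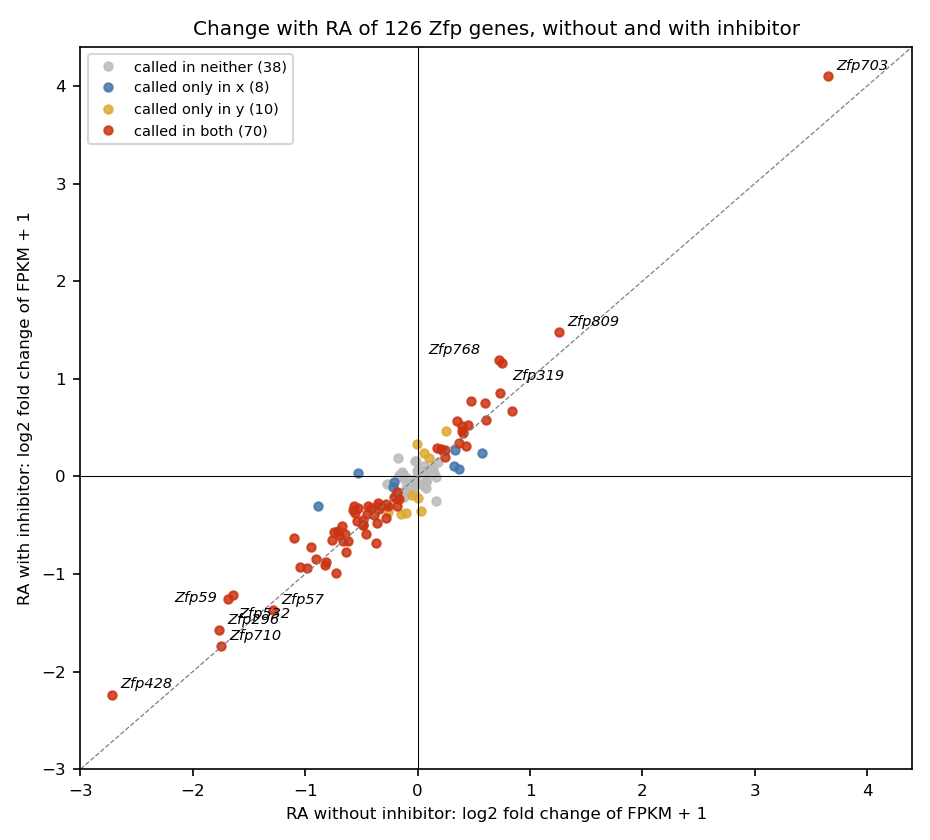
Log2 fold change with RA of each of the 126 Zfp genes without inhibitor (x axis) and with inhibitor (y axis), coloured by the comparisons in which the adjusted p was under 0.05, with a dashed line of equal change. Most points lie near the line, and the 70 genes called in both lie at the lower left or upper right.

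In RA inhibitor against RA control libraries, 82 of the 126 genes were not called, 34 rose and 10 fell, with a median log2 change of 0.04. The calls stood against 17.6% and 14.3% of all tested genes (31.9% together). The split was 39 and 5 in TPM, against 21.5% and 10.7%, and 36 and 8 per library total, against 19.7% and 13.8%. Under all 3 scalings 34 were higher and 5 lower, against 17.2% and 10.3%. Without RA control library 1 the number lower was 6. No Zfp gene changed by 2-fold or more, against 0.141% of all genes higher and 0.686% lower by that much. The annotated zf-C2H2 genes gave 12 higher and 1 lower of 26, with a median log2 change of 0.20. The KRAB genes gave 7 higher and 2 lower of 41, with a median of -0.03. The 52 genes with no family gave 13 higher and 6 lower. By number of fingers the counts were 8 and 3 of 31 genes with up to 4, 12 and 3 of 46 with 5 to 9, and 14 and 4 of 49 with 10 or more.

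Zfp553 rose the most with the inhibitor, from 5.95, 4.77 and 4.80 FPKM in RA control to 9.07, 8.35 and 9.07 FPKM in RA inhibitor libraries (log2 change 0.68, SE 0.07, adjusted p = 5.4e-05). The groups did not overlap, and both were below the 12.1 to 12.2 FPKM of the mESC control libraries. Zfp771 (0.58), Zfp768 (0.57), Zfp865 (0.55), Zfp319 (0.54) and Zfp358 (0.53) followed on the log2 scale. Zfp865, which shares over 25% of its 50-base words with other genes, was at 2.66, 2.62 and 2.33 FPKM without and 3.95, 4.14 and 4.42 FPKM with the inhibitor. Zfp703 rose further, to 24.1, 21.9 and 22.5 FPKM (0.42, adjusted p = 0.00422), but missed the threshold at a pseudocount of 0.1 (adjusted p = 0.107). Zfp809 rose to 14.0, 14.0 and 12.8 FPKM (0.33, adjusted p = 0.0166). That call was lost without RA control library 3 (adjusted p = 0.0625) or RA inhibitor library 1 (adjusted p = 0.0571).

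Among role lists, the chromatin partners gave 3 higher (Zfp384, Zfp592 and Zfp687) and 1 lower (Zfp451), against 17.6% and 14.3% of all tested genes. Zfp384 rose by 0.30 on the log2 scale with the inhibitor. Outside this list, the stem cell regulator Zfp462 rose by 0.33 and the developmental regulator Zfp219 by 0.13. Zfp462 lost the call without RA control library 3 (adjusted p = 0.0615). Zfp219 lost it without RA control library 2, RA inhibitor library 1 or RA inhibitor library 3 (adjusted p = 0.0649, 0.0883 and 0.0645). Zfp592 (0.21) and Zfp687 (0.17), which share the ZMYND8 complex, each lost the call without RA control library 2 or 3 or any RA inhibitor library (adjusted p up to 0.12 and 0.115). Zfp451 (-0.21) lost it in TPM (adjusted p = 0.142), per library total (0.0642) and without RA control library 1 or 2 or RA inhibitor library 1 or 3 (up to 0.139). The imprint keeper Zfp57 was at 21.1, 20.2 and 20.5 FPKM with the inhibitor, within or below the RA control values (-0.14, adjusted p = 0.188).

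The largest fall was that of Zfp53, a KRAB gene, from 5.44, 7.28 and 6.93 FPKM to 3.98, 3.79 and 4.21 FPKM (log2 change -0.59, SE 0.11, adjusted p = 0.00239). Zfp367 fell from 3.44, 3.504 and 3.58 FPKM to 2.43, 2.45 and 2.34 FPKM (-0.40, SE 0.07, adjusted p = 0.00128). Zfp383 (-0.28), Zfp185 (-0.28) and Zfp775 (-0.36) were the other 3 lower under all 3 scalings. Zfp775 lost the call without RA control library 3 (adjusted p = 0.0553) or RA inhibitor library 2 (adjusted p = 0.0516). Zfp229 fell by 0.41 on the log2 scale and missed the threshold in TPM (adjusted p = 0.0536) and without RA control library 2 (adjusted p = 0.0563).

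In mESCs the inhibitor was followed by smaller changes, with 9 genes higher and 2 lower, against 4.6% and 3.18% of all tested genes (7.78% together). Zfp358 rose the most, from 3.21, 4.09 and 3.54 FPKM to 5.26, 5.09 and 4.96 FPKM (log2 change 0.41, SE 0.07, adjusted p = 0.011), followed by the KRAB gene Zfp282 (0.36), which binds a viral long terminal repeat sequence. Zfp710 went from 36.3, 37.2 and 38.5 FPKM to 44.2, 45.3 and 48.2 FPKM (0.29, adjusted p = 0.00841). In a fit of only the 6 mESC libraries, Zfp358 and Zfp282 missed the threshold (adjusted p = 0.0541 and 0.0683) and 3 genes were called higher. Zfp568 (0.25), Zfp687 (0.24), Zfp647 (0.24) and Zfp646 (0.23) also rose. For the last 3 the call was lost on leaving out any of 4 or 5 single mESC libraries, with mESC control library 2, mESC inhibitor library 2 and mESC inhibitor library 3 common to them (adjusted p = 0.0522 to 0.106). Without 1 library each, 4 to 8 genes were called higher: leaving out mESC control library 2, mESC inhibitor library 2 or mESC inhibitor library 3 gave 4.

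Both falls in mESCs were near the threshold. Zfp772 went from 2.72, 3.02 and 3.15 FPKM to 2.30, 2.11 and 2.08 FPKM (-0.32, adjusted p = 0.0352), and lost the call on leaving out any 1 of the 6 mESC libraries (adjusted p from 0.053 without mESC inhibitor library 1 to 0.111 without mESC inhibitor library 2). Zfp207 went from 25.0, 25.7 and 23.8 FPKM to 21.9, 19.9 and 20.9 FPKM (-0.24, adjusted p = 0.0331). It lost the call in TPM (adjusted p = 0.127), per library total (0.0538) and without mESC control library 1 or 2 or mESC inhibitor library 2 or 3 (adjusted p = 0.0942, 0.115, 0.126 and 0.0812).

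The inhibitor comparisons in mESCs and in RA-treated cells share no libraries. Of the 9 genes higher in mESCs, 8 were also higher in RA-treated cells (88.9% of 9 and 23.5% of 34). For all tested genes the shared ones made up 62.9% and 16.4% of the 2 lists. Higher in both were 6.35% of the 126 and 2.89% of all tested genes. They were Zfp282, Zfp358, Zfp516, Zfp646, Zfp647, Zfp687, Zfp710 and Zfp839. Zfp516 and Zfp839 were named after their values were seen. In mESCs Zfp516 (0.20) lost the call without mESC control library 2 or 3 or mESC inhibitor library 2 or 3 (adjusted p up to 0.128), and Zfp839 (0.16) without any 1 of the 6 libraries (up to 0.146). Zfp568 was higher in mESCs only. None of the 2 genes lower in mESCs was lower in RA-treated cells, where 1.78% of all tested genes were lower in both.

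**Figure D4:**
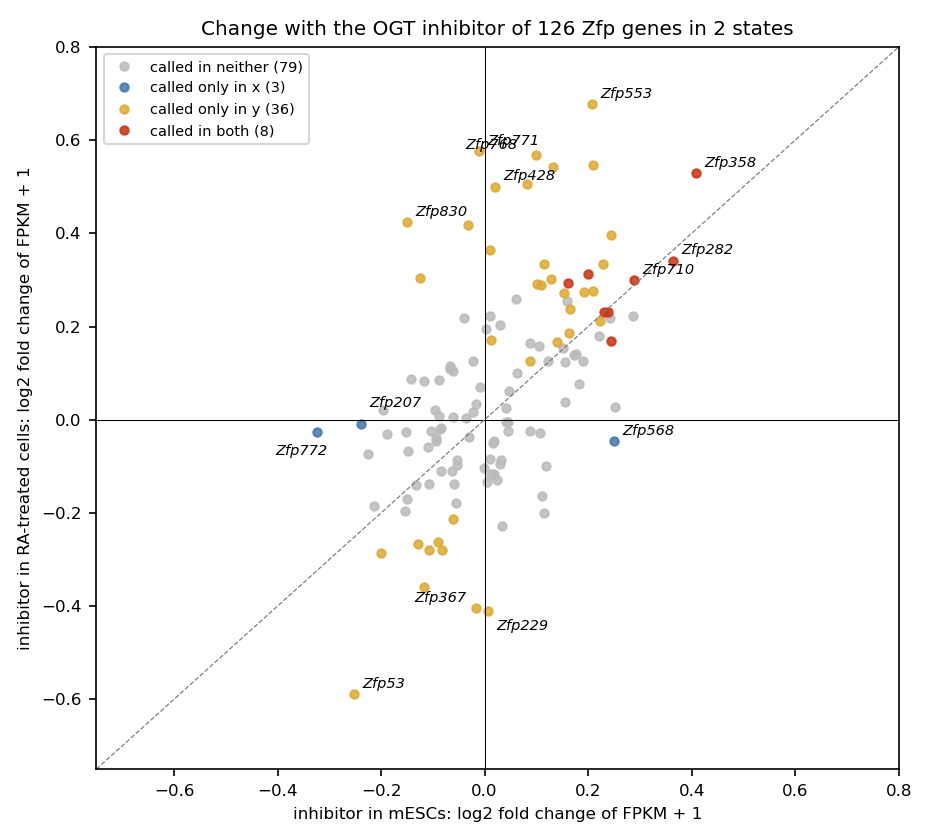
Log2 fold change with the OGT inhibitor of each of the 126 Zfp genes in mESCs (x axis) and in RA-treated cells (y axis), coloured by the comparisons in which the adjusted p was under 0.05, with a dashed line of equal change. The 8 genes called in both are all higher in both, and 36 genes were called in RA-treated cells alone.

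The difference between the 2 inhibitor effects was tested directly as an interaction term. It was above 0 for 5 genes and below 0 for 2, against 3.9% and 3.79% of all tested genes (7.69% together). Under all 3 scalings it was above 0 for Zfp830, Zfp553, Zfp532 and Zfp428 and below 0 for none, against 3.22% and 2.78% of all genes. Zfp830 had the smallest adjusted p of the 7. It was at 16.0, 15.9 and 15.3 FPKM in mESC control and 14.0, 14.8 and 13.5 FPKM in mESC inhibitor libraries, then at 10.5, 10.4 and 10.7 FPKM in RA control and 13.8, 15.1 and 14.6 FPKM in RA inhibitor libraries. The fall with RA was thus seen without inhibitor (-0.53) and not called with it (0.04, adjusted p = 0.482), and the interaction was 0.57 (SE 0.07, adjusted p = 0.000814). Zfp553 (0.47, adjusted p = 0.0161) and Zfp532 (0.43, adjusted p = 0.0186) likewise fell less with RA in inhibitor-treated cells. These 3 interactions kept their call under every alternative.

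The other 4 interactions were near the threshold. Zfp428 had an interaction of 0.48 (adjusted p = 0.0317) and Zfp319 one of 0.41 (adjusted p = 0.0297). Zfp568 differed in the other direction (-0.30, adjusted p = 0.0219): its levels of 29.2, 29.9 and 30.3 FPKM in mESC control cells rose to 37.0, 35.7 and 34.3 FPKM with the inhibitor, while RA cells had 40.1, 40.0 and 36.7 FPKM without and 38.5, 36.8 and 37.6 FPKM with it. Zfp367 had an interaction of -0.39 (adjusted p = 0.0348). The highest adjusted p on leaving out 1 library was 0.0789 for Zfp428 and 0.0767 for Zfp319 (both without RA inhibitor library 1), 0.054 for Zfp568 (without RA control library 1) and 0.0752 for Zfp367 (without mESC control library 1). Zfp428 kept the call only without mESC control library 2, mESC inhibitor library 3, RA control library 3 or RA inhibitor library 2. Zfp319 kept it only without mESC control library 1 or 2, mESC inhibitor library 2, RA control library 2 or RA inhibitor library 2. Zfp568 lost it without mESC inhibitor library 1 or 2 or RA control library 1, and Zfp367 kept it only without mESC control library 2 or mESC inhibitor library 2 or 3.

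Zfp genes often lie in clusters that arose by duplication. Runs of at least 4 members whose starts lay at most 1 Mb apart formed 8 clusters with 41 genes, 24 of them annotated as KRAB. At a limit of 500 kb, 5 clusters with 23 genes remained. These runs are set by distance alone, and their origin was not tested. Some spans also hold Zfp-named genes below the level limit. The 6 members on chromosome 4 stand among 17 such symbols, and the 4 at chr7:24081924-25227507 among 14. The cluster on distal chromosome 4 (chr4:145510759-147809788, coordinates as deposited, GRCm38) held Zfp990, Zfp981, Zfp978, Zfp979, Zfp534 and Zfp984, all KRAB genes. With RA 4 of these 6 were lower and none higher, with a median log2 change of -0.41, against 37.2% of all tested genes lower. In inhibitor-treated cells 5 were lower, against 36.7% of all tested genes. Zfp990 went from 8.61, 8.53 and 9.93 FPKM to 4.59, 6.43 and 4.97 FPKM (-0.67, adjusted p = 0.000658). These 6 genes share 27.1 to 77.4% of their 50-base words with other genes, so their fragments may be divided among copies. The call of Zfp981 with RA (-0.36) was lost without mESC control library 2 or 3 or RA control library 1 or 3 (adjusted p up to 0.0993), and that of Zfp534 in inhibitor-treated cells (-0.37) without mESC inhibitor library 1 or RA inhibitor library 3 (0.106 and 0.091). Under all 3 scalings 1 gene in each RA comparison was lower, against 25.2% and 22.9% of all tested genes. The inhibitor was followed by no call in either state, against 7.78% of all tested genes called in mESCs and 31.9% in RA-treated cells.

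The cluster at chr7:127233061-127885996 had another pattern. Its 5 genes, Zfp553, Zfp771, Zfp768, Zfp688 and Zfp646, include no annotated KRAB gene. With the inhibitor in RA-treated cells 4 rose under each scaling, with a median of 0.57. Of all tested genes, 17.6% rose in deposited FPKM, 21.5% in TPM and 19.7% per library total. Zfp771 was at 3.92, 2.56 and 3.997 FPKM without and 5.13, 5.16 and 6.68 FPKM with the inhibitor. Zfp688 was at 11.7, 9.79 and 12.3 FPKM without and 9.44, 10.2 and 10.7 FPKM with it (-0.14, adjusted p = 0.203). With RA alone Zfp768 rose, Zfp553 and Zfp771 fell, and the call of Zfp646 (-0.21) was lost in TPM and per library total. Exons of Zfp553 and Zfp646 overlap genes on the opposite strand over 70 and 608 bases.

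Other clusters were mixed. Their counts with RA stand against 33.7% of all tested genes higher and 37.2% lower, or 33.7% and 25.2% under all 3 scalings. Those with the inhibitor in RA-treated cells stand against 17.6% higher and 14.3% lower. At chr7:6131491-7209998, Zfp787 (0.74), Zfp772 (0.48) and Zfp954 (0.35) rose with RA. The call of Zfp954 was lost without mESC control library 1 (adjusted p = 0.0807) or RA control library 1 (adjusted p = 0.0732), and Zfp444 (-0.18) turned to 0.04 in TPM and 0.03 per library total and lost the call without mESC control library 1 (0.0574) or RA control library 2 (0.0694). At chr7:24081924-25227507, Zfp428 (0.50), Zfp526 (0.40) and Zfp574 (0.27) rose with the inhibitor in RA-treated cells, while with RA Zfp428 fell and Zfp574 was not called. Zfp180 changed by -0.22 with RA (adjusted p = 0.0487), which was lost in TPM (0.816), per library total (0.765) and without mESC control library 2 or 3 or RA control library 1 or 2 (up to 0.205). The call of Zfp526 was lost without RA control library 1 or 3 or RA inhibitor library 1 or 3 (adjusted p up to 0.0982). On chromosome 15 (Zfp41 to Zfp647) 2 genes rose and 3 fell with RA, on chromosome 17 (Zfp871 to Zfp414) 0 and 2, on chromosome 6 (Zfp282 to Zfp775) 1 and 1, and at Zfp383 to Zfp146 on chromosome 7 it was 2 and 1. Under all 3 scalings these counts were 2 and 2, 0 and 2, 1 and 1, and 2 and 0. In the last of these clusters Zfp382 lost its call without mESC control library 2 or RA control library 1 or 2 (adjusted p = 0.0718, 0.0797 and 0.0588).

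**Figure D5:**
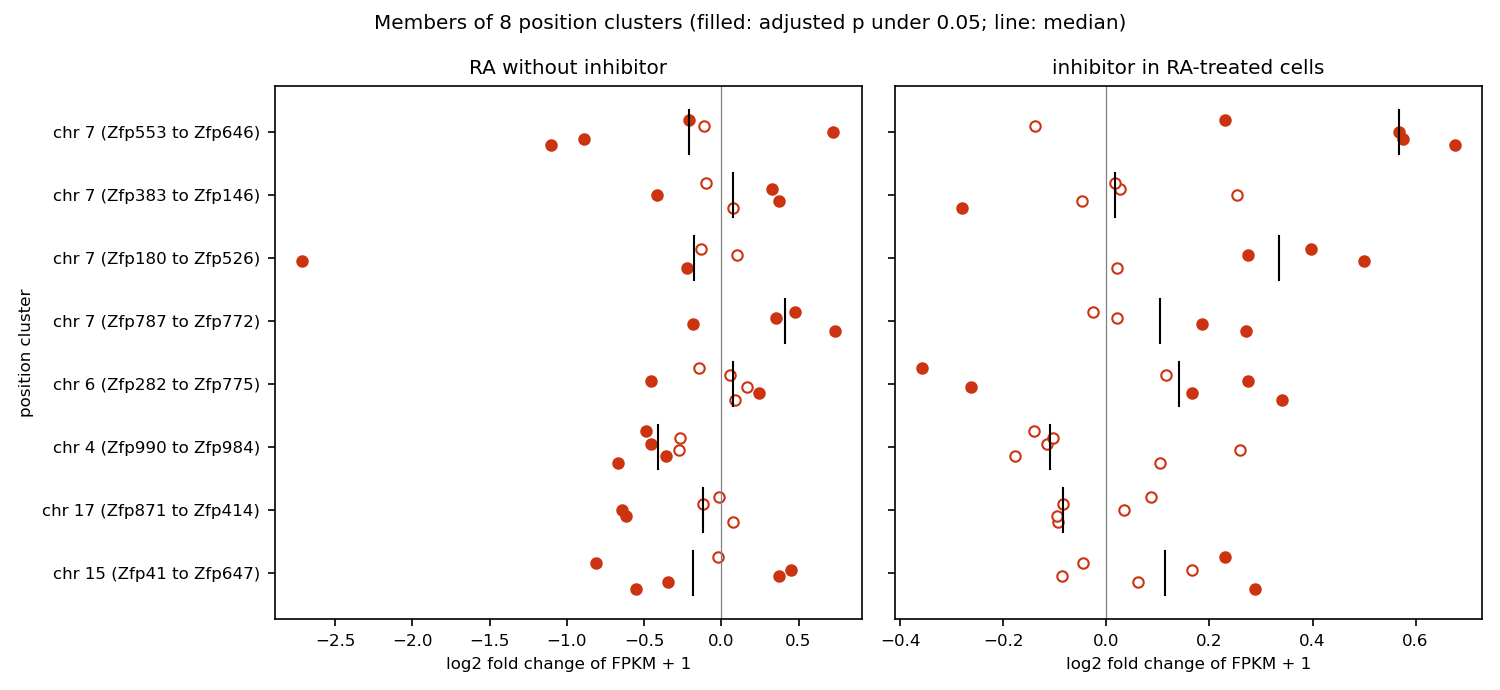
Log2 fold change of the 41 Zfp genes in 8 position clusters, for RA control against mESC control cells (left) and RA inhibitor against RA control cells (right), with filled points for an adjusted p under 0.05 and a black line at each cluster's median. The 6 genes of the chromosome 4 cluster all lie left of 0 with RA in deposited FPKM, and 4 of the 5 genes from Zfp553 to Zfp646 lie right of 0 with the inhibitor.

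Of the 126 genes, 27 (21.4%) were called in none of the 5 comparisons, against 17.1% of all tested genes. They include the role-list genes Zfp445, Zfp706, Zfp335, Zfp131 and Zfp692. Of the 7 genes with a ZFP143 core in the promoter, Zfp146, Zfp317 and Zfp692 are among these 27. Zfp1 was at 9.44, 8.47 and 9.19 FPKM in mESC control and 6.07, 5.82 and 6.59 FPKM in RA control libraries (-0.49, adjusted p = 0.000292), and Zfp566 fell by 0.42 on the log2 scale, a call lost in TPM (adjusted p = 0.108) and per library total (0.0803). The 140 tested Zfp genes below the level limit gave 26 higher and 40 lower with RA (18.6% and 28.6%, against 33.7% and 37.2% of all tested genes). With the inhibitor in RA-treated cells they gave 20 higher and 6 lower (14.3% and 4.29%, against 17.6% and 14.3%). The 29 related genes named Zbtb, Zkscan or Zscan with a number gave 9 and 13 with RA (31% and 44.8%) and 8 and 2 with the inhibitor (27.6% and 6.9%). Neither difference from the 126 genes was tested.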

How the data were processed

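RNA of 12 samples of R1 mESCs was sequenced after NEBNext Ultra library preparation, per the labels' protocols. The authors deposited 1 table of FPKM per gene and library, with gene coordinates, biotype and transcription factor family; the submitters' processing notes name HISAT2 2.0.5, featureCounts 1.5.0 and the GRCm38 build. The strand setting was not given in the sources used here. FPKM times gene length gave whole fragments (within 0.02) for 100% of values, and library totals of 15553627 to 17833464 fragments set the precision. A gene of the set had 82.2 to 6998.5 fragments on average, and 15 at least in any library.

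The 14866 genes that reached 1 FPKM in 3 libraries, all 126 Zfp genes among them, were tested with limma 3.58.1 (R 4.3.3) on log2(FPKM + 1), with 1 fit over 4 groups and a variance trend. Tests were two-sided, with Benjamini-Hochberg adjustment over all tested genes and a threshold of 0.05. Fold changes are on this scale and understate low genes. Alternatives, whose effect is given at the end, were scaling, filter, pseudocount, variance model, a voom fit on recovered fragments, a replicate block, other level limits, and each library left out.

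Members, lists and comparisons were chosen with earlier results of these data known. For each comparison the text names up to 6 called genes with the largest rise and 6 with the largest fall and no overlap of groups, with role-list and cluster genes besides; Zfp1, Zfp13, Zfp516 and Zfp839 were named after their values were seen. Lists are described by counts and medians. Fingers were read from GENCODE M21 coding sequences translated on GRCm38, in place of RefSeq proteins. Shared words are 50-base words of a gene's exons found in other genes. Replicates of a group differed beyond sampling noise (chi-square of 3.74 to 9.96 per gene at 20 or more fragments). The fit was tested on simulated data.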

Additional observations from a re-analysis of the deposited data

Results flagged for a closer look

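In all, 7 Zfp genes had an inhibitor effect in RA-treated cells that differed from that in mESCs by the interaction term of the limma fit (adjusted p under 0.05 over all tested genes). The interaction was above 0 for Zfp830 (adjusted p = 0.000814), Zfp553 (0.0161), Zfp532 (0.0186), Zfp319 (0.0297) and Zfp428 (0.0317). It was below 0 for Zfp568 (0.0219) and Zfp367 (0.0348). Among all tested genes, 7.69% passed the same test, against 5.56% of the Zfp genes.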

How the results depend on the processing

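Of 163 named calls, 95 held under every alternative tried and 68 missed the threshold or changed sign in at least 1; the cause was not tested. The level limits of 5 and 1 FPKM change which genes are counted. A mean of at least 1 FPKM adds 115 genes to the 126, and a mean of 5 FPKM leaves out members below it. Counts at these 2 limits thus come from sets of other sizes. They cannot be set directly against counts of the 126 genes or read as calls gained or lost. Counts of genes higher in mESCs with the inhibitor went from 9 to 3 in a fit of the compared groups only, and to 4 to 8 on leaving out 1 library. Counts lower there went from 2 to 0 with no filter or the compared groups only, 1 in TPM, per library total or with voom, 1 and 4 at means of 5 and 1 FPKM, and 0 to 1 without 1 library. With RA alone, higher counts went from 25 to 47 in TPM, 46 per library total, 12 and 44 at means of 5 and 1 FPKM, and lower counts from 53 to 35 in TPM and 86 at a mean of 1 FPKM. For the inhibitor in RA-treated cells, higher counts were 22 and 53 at means of 5 and 1 FPKM. Lower counts were 5 in TPM, 6 with the compared groups only, 1 at a mean of 5 FPKM, and 6 to 9 without 1 library (6 without RA control library 1). With RA in inhibitor-treated cells, higher counts were 51 in TPM, 51 per library total, 13 and 47 at means of 5 and 1 FPKM, and lower counts 26, 28, 35 and 83. For the interaction, counts above 0 were 3 with no filter, 8 with voom, 3 at a mean of 5 FPKM and 3 to 5 without 1 library, and counts below 0 were 1 with no filter, 0 in TPM, 1 per library total, 1 at a mean of 5 FPKM and 0 to 2 without 1 library. The lowest gene had 15 fragments in 1 library, which limits what can be called at low levels.

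Sign changes came only with the 2 other scalings (TPM first, then library total). With RA alone these were Zfp217 (0.041, 0.034), Zfp444 (0.039, 0.031), Zfp598 (0.068, 0.061), Zfp609 (0.046, 0.037) and, in TPM, Zfp646 (0.0023). In inhibitor-treated cells these were Zfp106 (0.081, 0.066), Zfp217 (0.045, 0.031), Zfp444 (0.10, 0.084), Zfp598 (0.033, 0.018) and Zfp646 (0.041, 0.025).

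Deviations of same-numbered libraries correlated at -0.0213 to 0.123 (median 0.030), over 0.1 in 3 of 18 pairs. Pairs with different numbers were at -0.183 to 0.134 (median -0.020), over 0.1 in 1 of 36. Whether replicate numbers pair the libraries was not tested. With the replicate block, 1 gene was lower with the inhibitor in mESCs, and the interaction counts became 8 above and 1 below 0.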
